A study of Mus musculus with 42 samples.

Results

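The aorta of diabetic mice that had received a high-fat diet together with L-NAME was compared with the aorta of diabetic mice that had received neither. Of the 42 arrays in the series, 6 belong to this comparison: 3 of the macroangiopathy aorta and 3 of the diabetic aorta, 1 mouse per array, chosen by their labels and not by any measured value. All 6 came from male KK/Ay mice, which received saline by gavage for 8 weeks. The study's methods give the mice as 18 to 20 weeks old and give no age at which tissue was taken. The macroangiopathy mice differed from the diabetic mice by a high-fat diet and by L-NAME in the drinking water at 0.2 mg/ml for 8 weeks. The diet and the drug were given together, so their contributions cannot be told apart. In the study's methods these 8 weeks served to establish the model and come before the 8 weeks of gavage. Whether diet or L-NAME went on until tissue was taken is not stated there. The remaining arrays hold healthy C57BL/6 mice, 4 groups of KK/Ay mice that received the same diet and L-NAME plus SHENQI, yangyinyiqi, huoxue or rosiglitazone, and the skeletal muscle of all 7 groups.

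KK/Ay mice carry the yellow allele of the agouti gene, which switches agouti on throughout the body, and they become obese and diabetic. L-NAME blocks the nitric oxide synthases, and the endothelial enzyme Nos3 is the main source of the nitric oxide with which the inner lining of the aorta relaxes the smooth muscle beneath it. The drug acts on the enzyme, whereas the arrays measured messenger RNA only. The aortic wall holds endothelium, layers of smooth muscle between elastic sheets, and an outer coat of fibroblasts, nerves and fat.

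Expression was read as log2 intensity, on which a difference of 1 is a doubling, and the level of one gene's probe says nothing against that of another gene's probe. A gene was called higher or lower in the macroangiopathy aorta where limma's moderated test gave an unadjusted P below 0.05, the threshold of the study's methods. Of 15535 genes tested, 587 were called (3.78%), 330 of them higher (2.12%) and 257 lower (1.65%). The share called was below the 5% that the threshold itself allows. None passed after Benjamini-Hochberg adjustment over all genes (0%), and the smallest adjusted P was 0.418. Every call below therefore stands at the unadjusted threshold only. In 1472 genes (9.48%) the 3 arrays of one group lay entirely above the 3 of the other, and 551 of the 587 called genes were among them. Such separation is the most extreme outcome of an exact permutation test of 3 against 3, which cannot go below 0.10. The share of 9.48% is no more than that allows. Separation of a gene is therefore given below as a description only. The median absolute difference over all genes was 0.136 on the log2 scale and the median signed difference 0.01, near 0 as quantile normalization leaves it, and 10 genes called higher and 17 called lower differed by more than 1.

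The arrays were not alike in quality or tissue content, and these facts stand beside every result. Diabetic aorta 1 was hybridised on slide 1, diabetic aorta 2 and 3 on slide 4 and all 3 macroangiopathy arrays on slide 6, so no slide held both groups. Diabetic aorta 1 was scanned on another day than the other 5 arrays, which share a scan day, and its file holds 63 columns where theirs hold 27. Diabetic aorta 1 had a median local background of 49 intensity units against 29 to 30.5 on the other arrays, and 58.5% of its probes were well above background against 63.1% to 72.1%. The agouti gene itself, as a check on the strain, read between 8.88 and 9.41 on the 6 arrays and between 5.30 and 5.49 in the healthy C57BL/6 aorta. The smooth muscle markers calponin 1 (Cnn1), transgelin (Tagln) and Myh11 were well above background on all 6 arrays, as the label aorta requires. The 18 skeletal muscle markers averaged 8.74, 14.01 and 10.6 in diabetic aorta 1, 2 and 3 and 10.6, 9.35 and 8.60 in macroangiopathy aorta 1, 2 and 3. Their summed intensity ranged from 14820 to 922700 in the diabetic and from 23590 to 84140 in the macroangiopathy aorta, and none of the 18 was called. Without diabetic aorta 1, 11 of the 18 were called, in a fit that called 1118 of all 15535 genes against 587 with all 6 arrays. Macroangiopathy aorta 3 stood apart by its B cell markers, with a summed intensity of 36150 against 1335 to 6751 on the other 5 arrays, and by its cardiac markers, which averaged 6.87 against 8.72 to 9.91. The part of these differences in the results below was not tested. In whole aorta, fewer cells of a type and less RNA per cell cannot be told apart.

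The genes of the endothelium read lower in the macroangiopathy aorta. Of 17 endothelial markers, all of them tested, 3 were called lower and none higher, against 1.65% of all genes called lower. The change was below 0 in 15 of the 17, and its median was −0.28 on the log2 scale, beside 0.01 over all genes. The 3 called were Tek, Robo4 and Tie1. Tek, the endothelial receptor for the angiopoietins, read 8.59, 8.47 and 8.50 in the diabetic aorta and 8.07, 7.88 and 7.74 in the macroangiopathy aorta. Every macroangiopathy array was thus below every diabetic array, and the difference was −0.62 ± 0.13 (SE; 95% interval −0.94 to −0.31; adjusted P = 0.976). Robo4, a guidance receptor of the endothelium that stabilises vessels, read 12.55, 12.17 and 12.26 in the diabetic aorta against 11.73, 11.69 and 11.72. Its change was −0.61 ± 0.14 (SE), and the macroangiopathy arrays differed from one another by no more than 0.04. Tie1, the partner receptor of Tek, read 10.48, 10.41 and 9.93 against 9.87, 9.78 and 9.71, a change of −0.49 ± 0.17 (SE) without overlap between the groups. The calls of Tek and Robo4 held when any 1 array was left out, and that of Tie1 was lost without diabetic aorta 1 or 2 and without macroangiopathy aorta 2 or 3.

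Egfl7, a secreted endothelial factor, read 12.86, 13.25 and 12.87 in the diabetic aorta and 12.64, 12.48 and 12.83 in the macroangiopathy aorta and did not pass the test at −0.34 ± 0.16 (SE). The changes of the other 13 markers lay between −0.49 for Emcn and 0.17 for Esam. Over the whole list the mean level was 10.07, 10.45 and 10.22 in the diabetic aorta and 9.87, 9.93 and 10.03 in the macroangiopathy aorta, with summed intensities of 35250 to 52390 and of 28650 to 40850. Cd93, a receptor of endothelial and myeloid cells that stood in the complement list, was also called lower, from 10.56, 10.58 and 10.24 to 10.19, 9.95 and 9.76 (−0.50 ± 0.17, SE). It was the only call among the 20 tested complement genes. The Cd93 call held in 2 of the 6 fits that left out 1 array and in 12 of all 20 alternatives. Without diabetic aorta 1, 7 of the 17 endothelial markers were called lower, in a fit that called 415 of all 15535 genes lower. No endothelial marker was called once slide was entered in a fit of all 21 aorta arrays, either as a random block or as a term for slide 1.

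Nos3, the endothelial nitric oxide synthase and the enzyme that L-NAME blocks, was among the genes called lower. It read 9.91, 9.60 and 9.27 in the diabetic aorta (9.59 ± 0.32, SD, n = 3) and 8.99, 8.95 and 8.84 in the macroangiopathy aorta (8.93 ± 0.08, SD, n = 3). The groups did not overlap, and the change was −0.67 ± 0.18 (SE; 95% interval −1.11 to −0.23; adjusted P = 0.976). The array measured it with 1 probe at chr5:23889636-23889695 of mm9, the build of the array's annotation, and it was well above background on all 6 arrays. The call held when any 1 of the 6 arrays was left out and was lost in each of the 4 fits that took in the arrays of other groups, where the change lay between −0.62 and −0.72 beside a wider estimate of the spread.

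**Figure D1:**
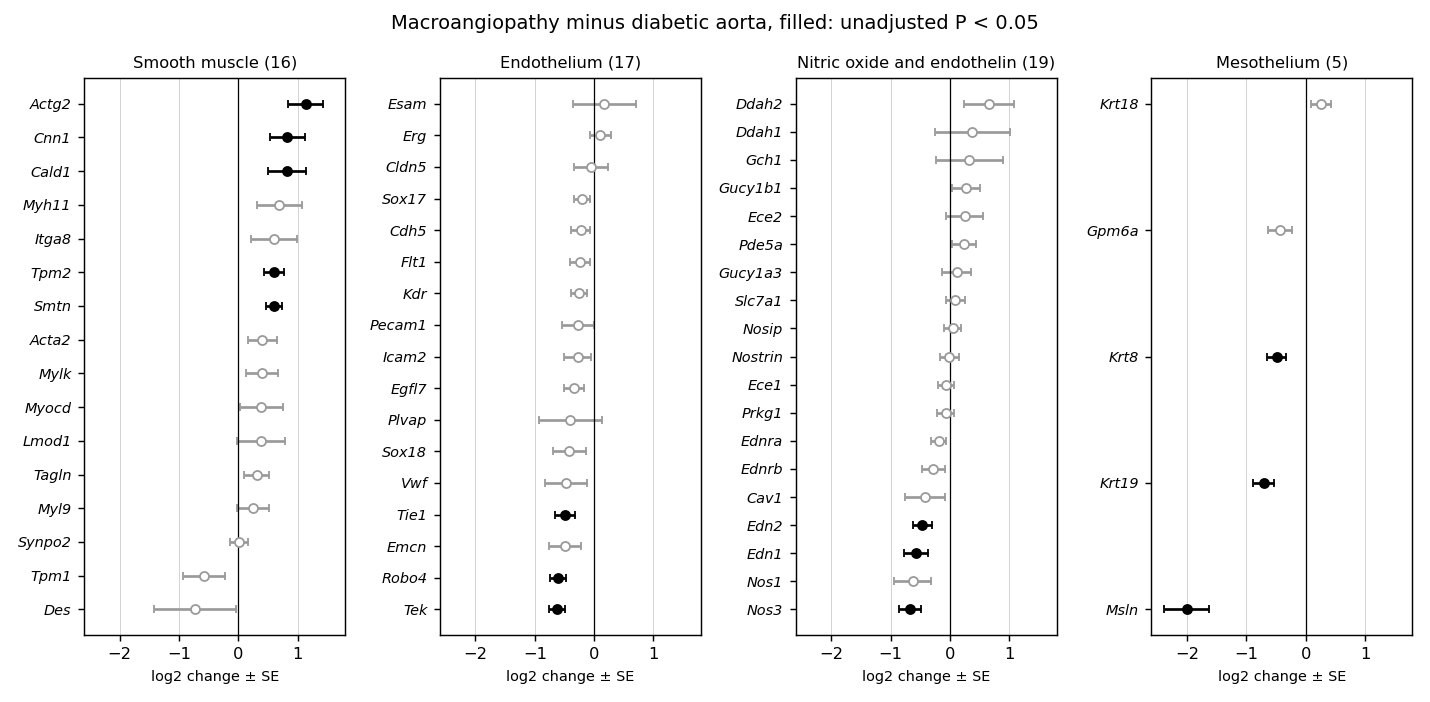
Change of each tested member of 4 lists between the macroangiopathy and the diabetic aorta, in log2 units on the horizontal axis, with the standard error as a bar, filled black where the member was called and open grey where it was not. The endothelial and mesothelial members called lower (Tek, Robo4, Tie1; Msln, Krt19, Krt8) lie left of 0, and the smooth muscle members called higher (Smtn, Actg2, Tpm2, Cnn1, Cald1) lie right of it.

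Around Nos3 stood a list of 19 tested genes of nitric oxide and endothelin signalling, of which 3 were called lower, against 1.65% of all genes, and none higher. The median change of the list was −0.01. Besides Nos3 the called members were the endothelins Edn1 and Edn2, peptides that constrict vessels. Edn1 read 8.01, 8.55 and 8.17 in the diabetic aorta and 7.48, 7.95 and 7.58 in the macroangiopathy aorta, a change of −0.57 ± 0.20 (SE). Every macroangiopathy array lay below the lowest diabetic array. Edn2 changed by −0.46 ± 0.16 (SE) near the background, being well above it on all 3 diabetic arrays and on 1 macroangiopathy array. Neuronal Nos1 read 6.66, 7.63 and 6.53 against 6.59, 6.32 and 6.03 and did not pass. The endothelin receptors and the genes of cyclic GMP gave no calls. The receptors Ednra and Ednrb differed by −0.19 ± 0.13 and −0.28 ± 0.19 (SE). The guanylate cyclase subunits Gucy1a3 and Gucy1b1 differed by 0.11 ± 0.25 and 0.27 ± 0.23, and Pde5a, which degrades the cyclic GMP they make, by 0.24 ± 0.20. Ddah2, which breaks down the body's own inhibitor of the nitric oxide synthases, read 10.16, 11.48 and 11.70 against 11.32, 11.94 and 12.07 and did not pass at 0.66 ± 0.43 (SE). Of the list, 1 member was called without diabetic aorta 2 and 1 without macroangiopathy aorta 3, beside 408 and 418 of all genes.

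Genes of the contractile apparatus of smooth muscle read higher in the macroangiopathy aorta. Of 16 smooth muscle markers, all tested, 5 were called higher and none lower, against 2.12% of all genes called higher. In 14 of the 16 the change was above 0, with a median of 0.40. Smoothelin (Smtn), a cytoskeletal protein of contractile smooth muscle, read 11.07, 10.96 and 10.87 in the diabetic aorta and 11.39, 11.68 and 11.62 in the macroangiopathy aorta. Its groups did not overlap, and the change was 0.60 ± 0.13 (SE; adjusted P = 0.976). Actg2, the gamma actin of smooth muscle, was measured at chr6:83472853-83473179 of mm9 and showed the largest change of the list. It read 10.98, 11.11 and 11.87 in the diabetic aorta (11.32 ± 0.48, SD, n = 3) and 12.29, 12.19 and 12.87 in the macroangiopathy aorta (12.45 ± 0.37, SD, n = 3), which was 2.19-fold higher, or 1.13 ± 0.29 (SE). Tpm2, a tropomyosin, rose from 14.31, 14.37 and 14.61 to 14.72, 15.19 and 15.17 (0.60 ± 0.17, SE).

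Calponin 1 (Cnn1), which binds actin and restrains contraction, read 15.44, 14.67 and 15.67 against 15.72, 16.22 and 16.32, a change of 0.82 ± 0.30 (SE) in which macroangiopathy aorta 1 exceeded the highest diabetic array by 0.05 only. Caldesmon (Cald1), also a regulator of actin and myosin, read 10.697, 9.59 and 10.35 against 10.73, 10.91 and 11.45 (0.82 ± 0.32, SE). In both genes diabetic aorta 2 was the lowest array. It was lowest too in Myh11, Acta2 and Tagln, which did not pass and are named here after their values were seen. Myh11, the myosin heavy chain of smooth muscle, read 15.01, 13.53 and 14.61 against 14.82, 15.02 and 15.38 (0.69 ± 0.38, SE). Acta2 differed by 0.40 ± 0.25 and Tagln by 0.31 ± 0.21 (SE). Only Tpm1, at −0.58 ± 0.36, and Des, at −0.72 ± 0.69 (SE), had a change below 0. Both were highest in diabetic aorta 2, the array with the highest skeletal muscle markers. The part of skeletal muscle content in the changes of this list, in either direction, was not tested.

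The summed intensity of the smooth muscle list was 385900, 281200 and 449300 in the diabetic and 378400, 520600 and 548200 in the macroangiopathy aorta, so macroangiopathy aorta 1 lay within the diabetic range. Leaving out diabetic aorta 1 gave 10 members higher and 1 lower, beside 703 and 415 of all 15535 genes. Leaving out diabetic aorta 2, macroangiopathy aorta 2 or macroangiopathy aorta 3 gave 3 in all each time (408, 308 and 418 of all genes). No member was called in the fits over 21 or 42 arrays. Among 26 tested potassium and calcium channel genes of smooth muscle, Kcnmb1, the beta subunit of the calcium-activated potassium channel, was called higher, from 7.21, 6.64 and 7.13 to 7.42, 7.43 and 7.44 (0.44 ± 0.17, SE). Phospholamban (Pln), the inhibitor of the calcium pump of the sarcoplasmic reticulum, was called lower. These 2 were the only calls of the channel list, beside 2.12% of all genes called higher and 1.65% lower. Pln read 7.72, 8.06 and 8.48 against 7.82, 6.87 and 6.12 (−1.15 ± 0.43, SE), with macroangiopathy aorta 1 inside the diabetic range and the lowest value in macroangiopathy aorta 3, where the cardiac markers were lowest too. Without diabetic aorta 1, 4 genes of the channel list were called and without diabetic aorta 3, 1, beside 1118 and 785 of all genes. Neither Kcnmb1 nor Pln held without diabetic aorta 2, without macroangiopathy aorta 2 or without macroangiopathy aorta 3.

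**Figure D2:**
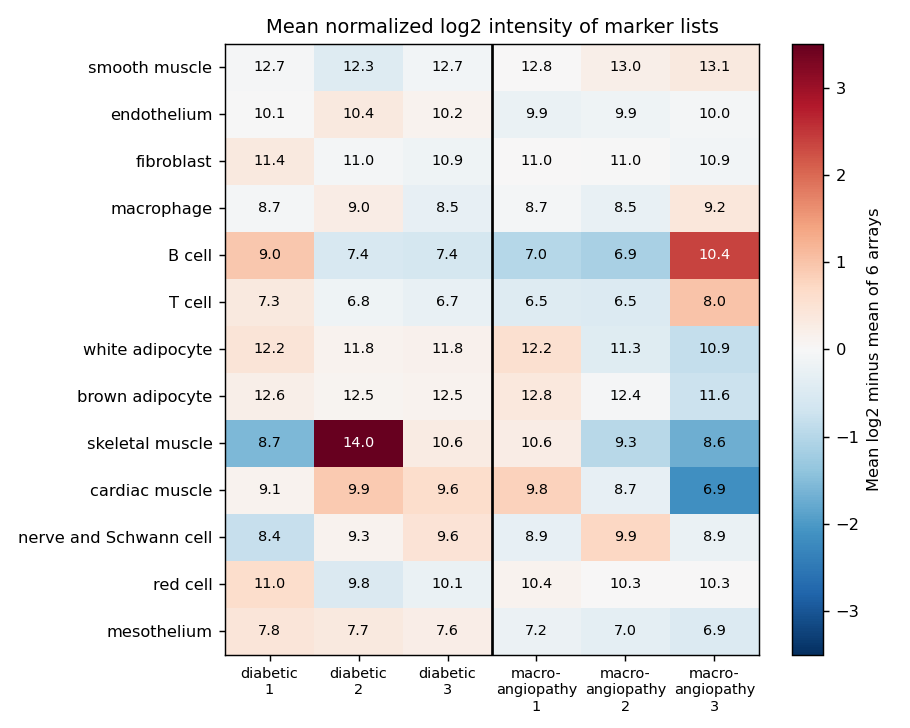
Mean log2 intensity of marker lists (rows) on each of the 6 aorta arrays (columns), printed in each cell; the colour gives the difference from the list's mean over the 6 arrays, red for higher and blue for lower. The skeletal muscle list is highest in diabetic aorta 2 (14.01), the B cell list in macroangiopathy aorta 3 (10.4), and the mesothelial list is lower on all macroangiopathy arrays (6.89 to 7.15) than on all diabetic arrays (7.59 to 7.79).

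The gene with the smallest P of all those tested was Igfbp2, a secreted protein that binds insulin-like growth factors and is known to be low in obesity. It read 6.60, 6.58 and 6.72 in the diabetic aorta (6.64 ± 0.07, SD, n = 3) and 8.07, 8.33 and 7.85 in the macroangiopathy aorta (8.08 ± 0.24, SD, n = 3). The level was thus 2.73-fold higher, a change of 1.45 ± 0.15 (SE; 95% interval 1.08 to 1.82), and its adjusted P of 0.418 was shared with 3 other genes. Its probe lies at chr1:72898677-72898736 of mm9. The related Igfbp3 was called higher as well, at the edge of the background and by 0.34 ± 0.14 (SE), a call lost without any 1 of diabetic aorta 1, 2 or 3 and macroangiopathy aorta 1 or 3. It was the only call among the 27 tested genes of insulin signalling and glucose transport.

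Igfbp2 came second among the increases named by size. The genes so named are the 12 largest increases and the 12 largest decreases among the 408 called genes that were well above background on all 6 arrays and did not overlap between the groups. The absence of overlap was a condition of their choice and is no finding. The largest increase was Gm15032, a predicted gene, at 1.76 ± 0.73 (SE). Diabetic aorta 1 read 6.34, far below diabetic aorta 2 and 3 at 9.12 and 9.11, and the macroangiopathy arrays read 9.98, 9.76 and 10.12. The size of the change thus leaned on diabetic aorta 1, although the call held without it. Wasf1, which directs actin assembly, read 7.23, 7.99 and 8.10 against 8.85, 9.26 and 8.77 (1.19 ± 0.26, SE). Ptgis, the prostacyclin synthase, whose product relaxes vessels and restrains platelets, read 9.83, 9.50 and 10.40 against 10.91, 10.74 and 11.28 (1.07 ± 0.26, SE; 2.10-fold). Fam83f read 7.56, 7.72 and 7.68 against 8.82, 8.46 and 8.39, and like Igfbp2 it varied little among the diabetic arrays (0.91 ± 0.15, SE). The peptidase Pitrm1 differed by 0.88 ± 0.30, Plac9a by 0.98 ± 0.39, the zinc finger gene Zfp442 by 0.94 ± 0.30 and Hmgb1-rs17, a copy related to Hmgb1 that its probe may not tell apart, by 0.95 ± 0.26 (SE). Col18a1, Ccn2 and Actg2 completed the 12. Leaving out 1 array ended the calls of Gm15032 (any macroangiopathy array), Plac9a (any diabetic array), Pitrm1 (diabetic aorta 1 or 2, macroangiopathy aorta 1), Col18a1 (macroangiopathy aorta 1) and Zfp442 (macroangiopathy aorta 3), whereas those of Igfbp2, Wasf1, Actg2, Ptgis, Hmgb1-rs17 and Fam83f held each time.

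**Figure D3:**
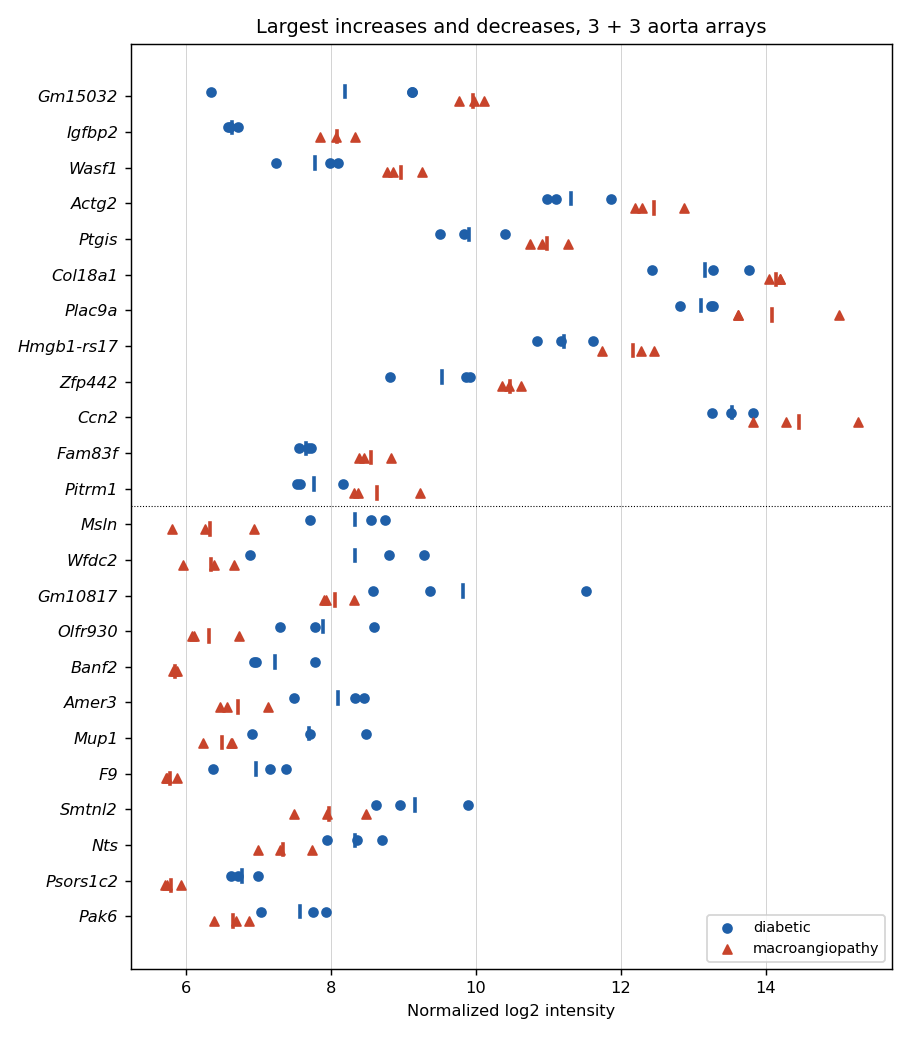
Log2 intensity of the 24 genes with the largest increases and decreases on the 3 diabetic (blue circles) and 3 macroangiopathy (red triangles) aorta arrays, with group means as short bars. By the rule that chose them no gene overlaps between the groups; Igfbp2 goes from 6.58 to 6.72 up to 7.85 to 8.33, and Msln from 7.71 to 8.74 down to 5.80 to 6.94.

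Among the genes named by size the largest decrease was that of mesothelin (Msln), a surface protein of the mesothelium, the cell layer that covers the organs of the chest and abdomen. It read 8.74, 8.56 and 7.71 in the diabetic aorta and 6.94, 6.25 and 5.80 in the macroangiopathy aorta, 4.02-fold lower at −2.01 ± 0.37 (SE; 95% interval −2.90 to −1.11; adjusted P = 0.834). Its probe lies at chr17:25885569-25885628 of mm9. Of 9 mesothelial markers 5 could be tested; Msln, Krt19 and Krt8 were called lower, against 1.65% of all genes, and none higher, and the median change was −0.49. The keratin Krt19 read 7.00, 7.10 and 6.91 against 6.45, 6.48 and 5.95 (−0.71 ± 0.18, SE), and Krt8 read 6.73, 6.30 and 6.51 against 6.19, 5.91 and 5.98 (−0.49 ± 0.16, SE). Gpm6a differed by −0.43 ± 0.20, and Krt18 by 0.26 ± 0.17 (SE). Wfdc2, a secreted epithelial protein, read 9.29, 8.80 and 6.89 against 6.67, 6.39 and 5.96 (−1.99 ± 0.60, SE; 3.97-fold lower), and its call was lost without diabetic aorta 2. Muc16, the mucin to which mesothelin binds, was looked up after these values were seen. It was not well above background on the macroangiopathy arrays and, with dim signals raised as described below, 2.51-fold lower there (adjusted P = 0.781). None of the mesothelial calls held in the fits over 21 aorta arrays.

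The other decreases named by size came from unrelated gene families. Olfr930, an olfactory receptor gene, read 7.77, 8.60 and 7.29 against 6.73, 6.11 and 6.09 (−1.58 ± 0.36, SE). Banf2 read 6.97, 7.78 and 6.93 against 5.84, 5.88 and 5.82 (−1.38 ± 0.24, SE). Amer3 read 8.45, 8.34 and 7.49 against 6.56, 7.13 and 6.47 (−1.38 ± 0.30, SE), and the coagulation factor gene F9 read 7.16, 7.38 and 6.37 against 5.74, 5.87 and 5.72 (−1.19 ± 0.26, SE). The F9 value averages a pair of probes, of which one was measured above background in 6 of 6 arrays (−1.98) and the other in 1 of 6 (−0.40). Nts, the precursor of neurotensin, changed by −0.99 ± 0.26, Psors1c2 by −0.98 ± 0.15, Pak6 by −0.93 ± 0.26 and Smtnl2 by −1.17 ± 0.39 (SE). The predicted gene Gm10817 (−1.78 ± 0.70, SE) read 11.52, 9.37 and 8.59 against 8.32, 7.93 and 7.90, and its call was lost without diabetic aorta 2 and without any 1 macroangiopathy array. Mup1, a urinary protein made in the liver, read 8.49, 6.90 and 7.72 against 6.24, 6.62 and 6.63 (−1.20 ± 0.39, SE), whereas the healthy C57BL/6 aorta read 11.1 to 13.4. Mouse urinary protein genes are near-identical copies, so the probe may not tell them apart. Among the 24 genes, adjusted P ranged from 0.418 to 0.976.

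In the matrix and its regulators a few genes were called. Of 22 collagen chains Col18a1 and Col4a5, both of basement membranes, were called higher, against 2.12% of all genes, and the list's median change was 0.08. Col18a1 read 13.77, 12.43 and 13.28 against 14.20, 14.05 and 14.19 (0.99 ± 0.32, SE), and Col4a5 read 6.002, 7.28 and 7.69 against 7.81, 8.08 and 8.11 (1.01 ± 0.42, SE). The lowest value was again a diabetic array in each. Without diabetic aorta 1, 10 chains were called and without macroangiopathy aorta 1 none, beside 1118 and 1016 of all genes. Without diabetic aorta 2, macroangiopathy aorta 2 or macroangiopathy aorta 3, 1 was called each time, beside 408, 308 and 418. Among 19 matrix metalloproteinases and inhibitors 2 were called, both higher, beside 2.12% of all genes. Timp3, an inhibitor bound to the matrix, differed by 0.58 ± 0.19, and Mmp14, a membrane-bound protease, by 0.44 ± 0.18 (SE). The Timp3 call was lost without diabetic aorta 2 or macroangiopathy aorta 2. The Mmp14 call was lost without any 1 array except macroangiopathy aorta 1. Of 21 elastic fibre genes only Efemp1 was called, lower by −0.45 ± 0.14 (SE), beside 1.65% of all genes. Elastin (Eln) read 9.31, 8.23 and 8.70 against 8.97, 9.47 and 9.53 and did not pass.

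Of 30 tested genes of TGF-beta signalling 3 were called higher, Smad7 and Ccn2 among them, and 1 lower, beside 2.12% and 1.65% of all genes. Smad7, the inhibitory Smad induced by TGF-beta, read 7.50, 7.92 and 8.53 in the diabetic aorta and 9.01, 8.67 and 8.82 in the macroangiopathy aorta, a change of 0.85 ± 0.27 (SE). Ccn2, the connective tissue growth factor, read 13.51, 13.26 and 13.82 against 13.83, 15.27 and 14.28 (0.93 ± 0.37, SE), with 1 macroangiopathy array level with the highest diabetic array. Bmper, a secreted modulator of bone morphogenetic proteins, was called lower at −0.43 ± 0.16 (SE). The ligands and receptors of the list gave no calls, and its median was 0.03. The Ccn2 call was lost without diabetic aorta 1, 2 or 3 and without macroangiopathy aorta 2 or 3, the Smad7 call without macroangiopathy aorta 1 and the Bmper call without any 1 array except macroangiopathy aorta 1. Of the list, 1 member was called without diabetic aorta 2 and 1 without macroangiopathy aorta 2, beside 408 and 308 of all genes. Without macroangiopathy aorta 1 or 3, 2 members were called each time, beside 1016 and 418 of all genes.

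Among clock genes the called members were Nr1d1 and Bhlhe40, both transcriptional repressors, and both were lower. Nr1d1 read 8.31, 8.14 and 8.14 in the diabetic aorta and 7.74, 7.195 and 7.39 in the macroangiopathy aorta, without overlap, at −0.75 ± 0.17 (SE; 95% interval −1.16 to −0.35; adjusted P = 0.976). Bhlhe40 read 9.15, 9.61 and 9.81 against 9.17, 8.77 and 8.60 (−0.68 ± 0.23, SE), with macroangiopathy aorta 1 inside the diabetic range. They were 2 of 12 genes of the output and repressor arm of the circadian clock, beside 1.65% of all genes called lower, and the median change of the arm was −0.20, with none called higher. Dbp, a strongly rhythmic output gene, read 15.15, 14.35 and 14.93 against 14.47, 13.50 and 14.56 and did not pass at −0.63 ± 0.34 (SE). Of 6 genes of the activator arm none was called, Arntl (Bmal1) differing by 0.17 ± 0.20 (SE). The hour at which each mouse was killed is not given in the sources used here. Without diabetic aorta 2 or 3, or macroangiopathy aorta 2 or 3, only Nr1d1 was called in the output arm.

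The interferon response list had its change above 0 in 23 of 27 tested genes, with a median of 0.25, but only 2 were called, both higher, beside 2.12% of all genes. Isg15, a ubiquitin-like protein induced by interferon, read 7.02, 7.19 and 7.39 against 7.63, 7.86 and 7.78 (0.55 ± 0.14, SE). Irf7, the transcription factor that amplifies type I interferon, read 6.87, 6.92 and 6.57 against 7.15, 7.09 and 7.33 (0.41 ± 0.15, SE). In the healthy C57BL/6 aorta, Isg15 read 8.02 to 10.89 and Irf7 7.44 to 10.21, above all 6 KK/Ay arrays. Without diabetic aorta 3 or without macroangiopathy aorta 3, 1 member was called, beside 785 and 418 of all genes. Without diabetic aorta 2 or without macroangiopathy aorta 1, 5 members were called, beside 408 and 1016 of all genes. Of 26 chemokines and receptors none was called. Ccl8, which draws monocytes, had the largest change of that list, 1.63 ± 0.89 (SE), reading 9.95, 9.81 and 9.78 against 10.26, 10.43 and 13.72, with macroangiopathy aorta 3 far above the other 5 arrays. Leukocyte adhesion genes (15 tested) gave no calls either, P-selectin (Selp) differing by −0.36 ± 0.15 and Jam2 by −0.53 ± 0.23 (SE).

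**Figure D4:**
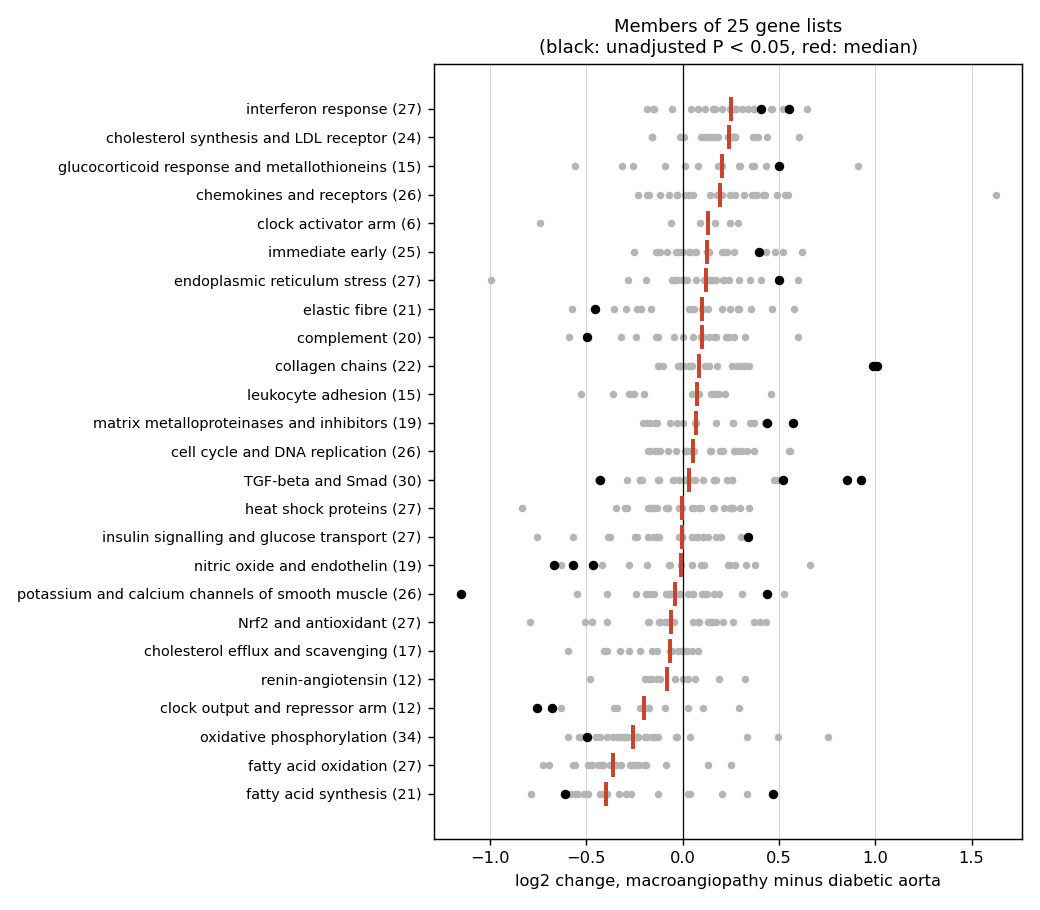
For each gene list, the change of every tested member between macroangiopathy and diabetic aorta in log2 units, black where called and grey where not, with the list's median as a red bar and its number of tested members in brackets. The medians lie between −0.40 for fatty acid synthesis and 0.25 for the interferon response, and most members of every list are not called.

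Genes of lipid and energy metabolism mostly read lower without passing the test. Of 27 genes of fatty acid oxidation the change was below 0 in 25, with a median of −0.36, and none was called. Cpt1b, which admits fatty acids to mitochondria in muscle and brown fat, read 12.98, 12.73 and 12.40 against 12.90, 12.03 and 11.10. For oxidative phosphorylation 30 of 34 changes were below 0 (median −0.26) and 1 was called, the complex I subunit Ndufs3, from 14.02, 14.16 and 14.05 to 13.72, 13.69 and 13.33 (−0.50 ± 0.15, SE). In fatty acid synthesis (21 genes, median −0.40) Srebf1, the regulator of lipid synthesis, was called lower at −0.61 ± 0.25 and the desaturase Fads2 higher at 0.47 ± 0.16 (SE). The Srebf1 call was lost without diabetic aorta 1 or 2 and without macroangiopathy aorta 2 or 3, and the Fads2 call without macroangiopathy aorta 1 or 2. White adipocyte markers moved with these lists. All 15 had a change below 0, with a median of −0.51, and none was called; their summed intensity was 267000, 228200 and 270000 in the diabetic and 301800, 174400 and 133500 in the macroangiopathy aorta. Macroangiopathy aorta 1 was thus the richest of the 6 arrays in fat markers and macroangiopathy aorta 3 the poorest. Without macroangiopathy aorta 1, 12 of the 15 were called lower, in a fit that called 733 of all 15538 genes lower. The part of fat content in the metabolic genes was not tested. Of 24 genes of cholesterol synthesis and uptake 21 had a change above 0, with a median of 0.24, and none was called.

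Several systems tied to vascular disease gave no calls or single ones. None was called among 12 tested genes of the renin-angiotensin system, 17 of cholesterol efflux and scavenging, 27 of the Nrf2 and antioxidant response, 27 heat shock genes and 26 of the cell cycle. Single genes were called higher among the immediate early genes (Zfp36, 0.40, of 25), the glucocorticoid response (Ddit4, 0.50, of 15) and the endoplasmic reticulum stress response (the chaperone Calr, 0.50, of 27). Of these, Calr held without any 1 array, but its probes differed (0.33 and 0.67) and its call held in 19 of the 20 alternatives. No marker was called among 11 of fibroblasts, 18 of macrophages, 13 of T cells, 9 of B cells, 8 of neutrophils and mast cells, 11 of brown adipocytes, 5 of red cells, 15 of nerve and Schwann cells and 3 of kidney, liver and pancreas. Of the 16 cardiac markers Actc1 was called higher and Tbx5 lower, around a list median of −1.20. Counted over the 25 gene lists, which overlap, 15 of 552 tested entries were called higher (2.72%) and 11 lower (1.99%), close to the 2.12% and 1.65% of all genes, and over the 15 marker lists 6 of 180 were higher (3.33%) and 7 lower (3.89%).

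The other aorta groups received the same diet and L-NAME plus a treatment and supply 12 further arrays. They were not used to choose the genes, but they are read against the same 3 diabetic arrays, so what follows is a description. Igfbp2 lay above all diabetic arrays on 11 of the 12 (6.54 to 8.82, median 7.35). Tek, Nr1d1 and Cd93 lay below all diabetic arrays on 11 of 12, Robo4 and Tie1 on 10, and Nos3 and Edn1 on 9. Egfl7, which was not called, did so on all 12. Such counts were not made over all genes, so they do not set the called genes apart. Nos3 ranged from 8.17 to 10.02 there, and from 8.50 to 10.61 on the 3 healthy arrays, which spanned both groups. The healthy mice received neither diet nor drug, yet their Tek (7.24 to 8.43) and Edn1 (7.23 to 7.97) also lay below all diabetic arrays. The highest healthy readings of Nr1d1 (8.56), Cd93 (10.31), Robo4 (12.91) and Tie1 (10.24) did not. Of the smooth muscle genes, Actg2 lay above all diabetic arrays on 9 of 12, Cnn1 on 7 and Smtn on 5. Msln was below them on 7 of 12 and reached 10.2 at its highest, above every diabetic array. On the 3 healthy arrays the smooth muscle genes were widely spread, Smtn from 7.16 to 10.56 and Actg2 from 8.28 to 12.65.

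**Figure D5:**
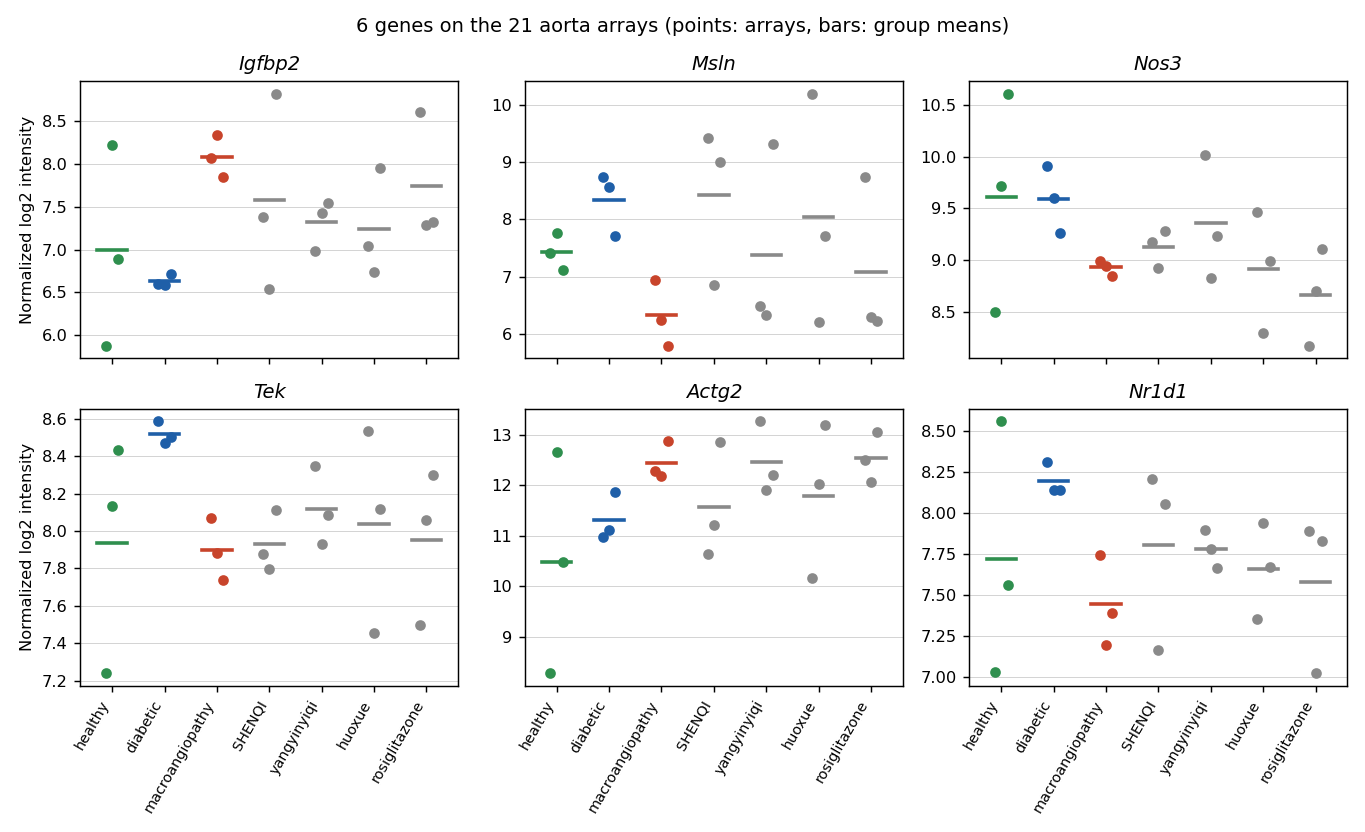
Log2 intensity of Igfbp2, Msln, Nos3, Tek, Actg2 and Nr1d1 in the aorta of all 7 groups, 3 arrays each. Tek and Nr1d1 lie below all 3 diabetic arrays on the macroangiopathy arrays and on 11 of the 12 arrays of the treated groups, a count not made over all genes. For Tek the 3 healthy arrays, without diet or L-NAME, also lie below all 3 diabetic arrays (7.24 to 8.43). For Nr1d1 the healthy arrays range from 7.03 to 8.56.

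Skeletal muscle of the same 2 groups gave the comparison between tissues. Over 15851 genes tested for a change that differed between aorta and muscle, 693 passed at an unadjusted P below 0.05 (4.37%) and none after adjustment (0%). The smallest adjusted P was 0.215, with Banf2 among the genes at that value. In muscle Nos3 changed by 0.12, Tek by 0.06, Robo4 by −0.03 and Smtn by −0.15 on the log2 scale. The difference between the changes of the tissues was −0.79 for Nos3, −0.68 for Tek and 0.75 for Smtn. Igfbp2 changed by 0.28 in muscle, where macroangiopathy muscle 2 read 8.22 and the other 2 macroangiopathy arrays 6.41 and 5.97, and its difference between tissues was 1.17. Msln changed by −0.10 in muscle, with a difference of −1.90. In contrast, Pitrm1 changed by 0.85 in muscle, close to its 0.88 in aorta, and Isg15 by 0.59, close to its 0.55. None of these differences passed adjustment, so no gene was shown to change in one tissue and not in the other.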

How the data were processed

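Total RNA of aorta and skeletal muscle was labelled with Cy3 and hybridised to 42 one-colour Agilent whole-genome mouse arrays, 3 mice per group and tissue. The authors deposited scanner output of Feature Extraction 10.7.3.1, whose intensity values are unnormalized median spot and local background signals with mm9 probe positions, and a value table of log2 values that they had background-corrected and quantile-normalized; the table served as an alternative only. Groups were read from the sample titles, which number separate mice. As in the study's methods, background was corrected with limma, control spots were dropped and intensities were quantile-normalized. Choices made here were normexp with offset 0 on the local background, normalization over all 42 arrays, log2, irregular spots set missing, and the mean over the spots and probes of a gene. Of 41174 probes, 34752 had a gene name, giving 21409 genes; 27479 were named through accessions. A gene entered the test if the scanner had flagged 1 of its probes as well above background on every array of either group; 9 of 15544 such genes lost a group's estimate to a missing spot and were dropped.

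The test was limma 3.58.1 (R 4.3.3, lmFit and eBayes with default settings), 3 arrays against 3, two-sided, with Benjamini-Hochberg adjustment. An interaction term over 12 arrays tested the difference between tissues. The study's methods describe both tissues for 3 mice of each group. No term for the mouse was fitted, and a possible pairing of aorta and muscle was not used. An exact permutation test of 3 against 3 cannot go below 0.10 and was not used. The number of arrays limits the precision. For the fold of Muc16, the macroangiopathy aorta was set at the higher of its own signal and the lowest signal well above background on each array. That lowest signal was −0.74 in log2 units on macroangiopathy aorta 3, against 5.31 and 5.39 on macroangiopathy aorta 1 and 2. The fold is therefore no strict lower bound. Scripts were tested on simulated data. Genes were named by 3 rules: the 12 largest called, non-overlapping changes in each direction, up to 4 members of each list with the smallest P, and Nos3 and the agouti gene as checks. The comparison and the lists were chosen with earlier results of these data known, and members named beyond these rules were chosen after their values were seen. Probes of Cx3cr1, Hmgcs1 and Hspa8 disagreed in sign. Alternatives changed the background correction, the normalization, the filter, the probe choice, the arrays in the fit, the slide, the replicate block and the variance prior, and left out each array. One called gene of the TGF-beta list is not reported here by name.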

Additional observations from a re-analysis of the deposited data

How the results depend on the processing

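The count of genes at an unadjusted P below 0.05, 587, ranged from 308 (without macroangiopathy aorta 2) to 1118 (without diabetic aorta 1) when 1 array was left out, with 408, 785, 1016 and 418 without diabetic aorta 2, diabetic aorta 3, macroangiopathy aorta 1 and macroangiopathy aorta 3. It was 904 without a filter on dim probes, which also adds genes tested, 266 in a fit of 21 aorta arrays (192 of the 587 shared), 198 with slide as a random block in that fit (152 shared) and 284 with a term for slide 1 (146 shared); the cause of these lower counts was not tested. In the other 10 alternatives it lay between 468 and 782. The count after adjustment was 0 in all 20 alternatives, whose smallest adjusted P ranged from 0.0646 (the authors' value table) to 0.9999. Replicate numbers share no known source across groups, and same-numbered deviations correlated by 0.152, 0.0836 and −0.0418, so they do not pair the mice; with the replicate block 782 genes were called and 0 after adjustment. For the difference between tissues the adjusted count was 0 in every alternative, the replicate block within tissue included, except without diabetic muscle 3, where it was 1 (Diaph3, adjusted P = 0.0113); the range over left-out arrays was 0 to 1. Of 58 called genes followed by name none changed direction in any of the 20 alternatives. They were chosen by their calls on the same 6 arrays, so most alternatives could hardly reverse them, and the unchanged direction is no support. Amer3, Banf2, Igfbp2, Nr1d1, Olfr930 and Psors1c2 passed in all 20 alternatives, and 24 of the 58 held whichever of the 6 arrays was left out. In contrast, 10 of the 58 passed with the slide 1 term, 12 with slide as a random block and 15 in the fit of 21 arrays. The median standard error was 0.17 on the log2 scale with 3 arrays a group, and a gene that misses the threshold is not shown to be unchanged.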
